A study of Homo sapiens with 4 samples.

Results

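The genes described here are MYC and 44 factors that build the ribosome, found by current symbol in a table of RPKM values, which relate reads to transcript length and sequencing total. Of the 45 genes listed, 44 had a row among the 36525 genes of the table, and BOP1 was not analysed here. All 44 had a mean of at least 1 RPKM over the 4 libraries and were tested among 13627 genes that met this filter. The series compared LM2 cells depleted of hnRNPM, a splicing regulator that binds RNA, with control LM2 cells. LM2 is a clonal line of MDA-MB-231, a mesenchymal human breast cancer line, selected for metastasis to the lung. The groups were 2 knockdown libraries, in which the labels name both an shRNA and an siRNA against hnRNPM, and 2 control libraries of the same line, all collected 48 h after plating in the same serum-containing medium. No label states whether a group's libraries were separate cultures; p-values therefore reflect the spread between these samples alone, and that spread may be technical.

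Ribosomes are assembled in the nucleolus. RNA polymerase I, with UBTF and RRN3, makes a long precursor rRNA, small nucleolar RNPs guide its modification, and large sets of factors cut and fold it into the small and the large subunit. MYC, a transcription factor that binds the E-box sequence CACGTG together with MAX, is known to raise the transcription of many of these genes.

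MYC fell after hnRNPM knockdown, while of the 43 tested ribosome biogenesis factors 3 rose and 4 fell. MYC averaged 20.7 ± 1.70 RPKM after knockdown and 32.6 ± 3.49 RPKM in control cells (SD, n = 2 each), which is 1.57-fold lower. The 44 tested genes had a median log2 fold change (knockdown over control) of −0.00, against −0.07 over all 13627 genes tested. Of the 44, 3 rose (RRN3, DDX21 and LTV1), 5 fell (MYC, UBTF, NOLC1, NAT10 and NOP14) and 36 did not pass (limma, Benjamini-Hochberg adjusted p under 0.05). When 1 library was left out, whichever it was, 0 rose and 1 to 3 fell. On all 4 libraries 18.2% of them were called, against a background of 36.4% of all genes tested, of which 14.7% were called higher and 21.8% lower. The changes were mostly small: 30 of the 44 (68.2%) lay within 0.25 of 0 on the log2 scale, against 42.1% of all genes tested, and 1 of them, UBTF, lay beyond 1 (2.27%, against 7.62%).

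The scaling of the libraries decided how many members were called. The second library of each group read higher for nearly all members, 43 of 44 in the knockdown group (all but NOB1) and 44 of 44 in the control group. With the libraries scaled by median ratios, 20 members rose, 13 fell and 11 did not pass. That is 33 of 44 called, or 75%, against a background of 61% (31.1% higher, 30% lower). The members were thus called less often than all genes as deposited (18.2% against 36.4%) and more often with scaling. Higher calls made up 60.6% of the member calls in place of 37.5%, and 50.9% in place of 40.3% among all genes. All 8 members called on the values as deposited were called in the same direction with scaling. The median of the members became 0.07, against 0.00 over all genes. Below, a gene is said to have risen or fallen only where it passed on the values as deposited, and log2 fold changes are on the log2(RPKM + 0.5) scale. Fits that left out 1 library also used the values as deposited, without scaling. In RNA from a whole culture, fewer cells of a type and less RNA per cell cannot be told apart.

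**Figure D1:**
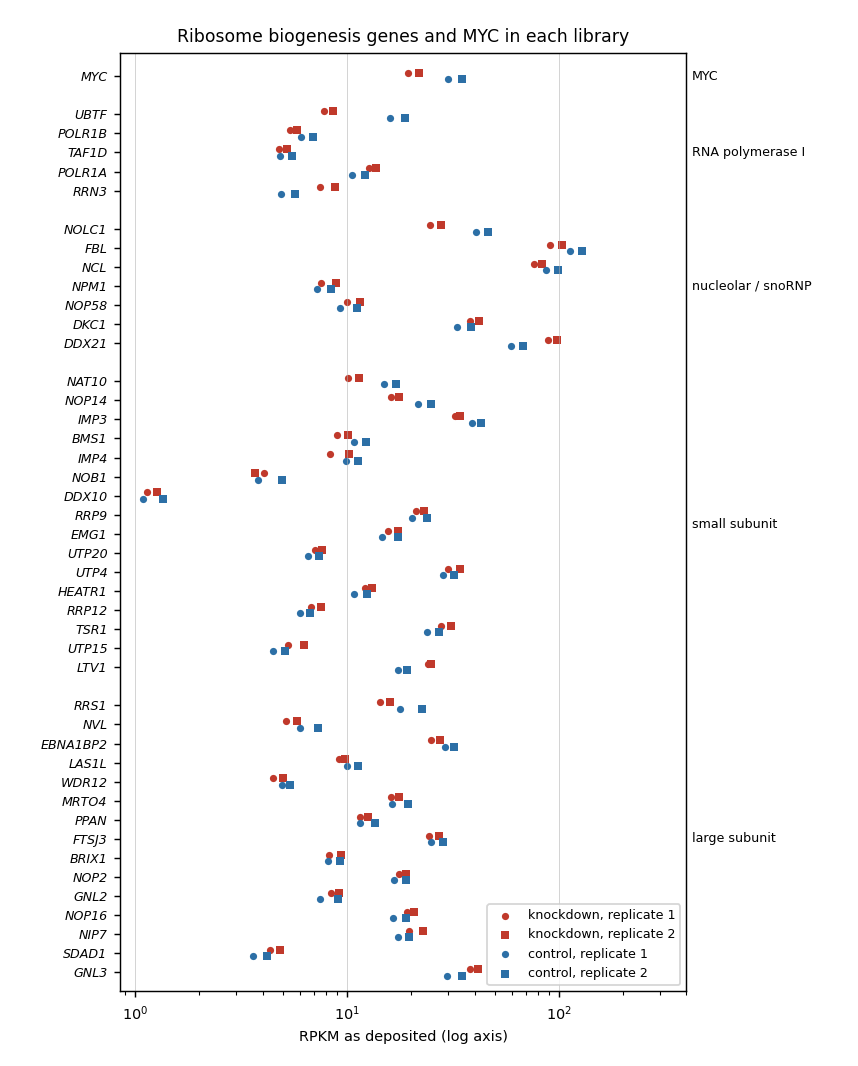
RPKM as deposited (log axis) of the 44 members in each of the 4 libraries, knockdown in red and control in blue, circles for replicate 1 and squares for replicate 2, grouped by role. For UBTF, MYC, NOLC1, NAT10 and NOP14 both knockdown points lie left of both control points, and for RRN3, DDX21 and LTV1 to the right. Overlapping groups are seen for 19 of the 44 genes. Groups do not overlap for 56.8% of the members, against 66.8% of all 13627 genes tested.

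The libraries bore out their labels at the target: HNRNPM was at 11.5 and 12.95 RPKM in the knockdown libraries, against 88.6 and 102 RPKM in the control libraries. Estimated reads assigned to genes numbered 16.5 M and 18.3 M in the knockdown libraries, against 23.0 M and 26.6 M in the control libraries. The 7 mesenchymal markers were present, the lowest of them reaching 63.2 RPKM in at least 1 library. Among the leukocyte markers 1 reached 1 RPKM, CD68, a lysosomal protein (7.69 and 8.75 RPKM after knockdown, against 26.1 and 29.1 RPKM in control cells), and no endothelial marker exceeded 0.408 RPKM. Luminal epithelial markers summed to 21.4 to 23.5 RPKM after knockdown and 12.9 to 14.6 RPKM in control cells. Of the 7, 4 reached 1 RPKM in at least 1 library (KRT18, KRT8, GATA3 and EPCAM), and the progesterone receptor gene PGR was at 0. KRT18 was at 10.5 and 11.8 RPKM after knockdown, against 5.49 and 6.54 RPKM in control cells. For KRT8 the values were 7.50 and 8.01 RPKM, against 3.86 and 4.55 RPKM. GATA3 and EPCAM were at 2.55 RPKM or less in every library. Transcripts used as a sign of RNA quality (5 mitochondrial genes, MALAT1 and NEAT1) summed to 2979 and 3277 RPKM after knockdown, against 1896 and 2176 RPKM in control cells, and the part of this difference in the results was not tested.

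MYC itself was at 19.5 and 21.9 RPKM in the knockdown libraries, against 30.1 and 35.03 RPKM in the control libraries. Both knockdown values lay below both control values. The difference came to −0.64 ± 0.17 on the log2 scale (SE; adjusted p = 0.00129, limma), and scaling by median ratios gave −0.56. Leaving out 1 library kept the direction, with log2 fold changes of −0.75 to −0.53, but the call held in only 1 of these 4 fits, the one without control replicate 1 (adjusted p = 0.0429). It was lost without control replicate 2 (adjusted p = 0.116), without knockdown replicate 1 (0.256) and without knockdown replicate 2 (0.104). An estimated 1735 and 1950.0 reads in the knockdown libraries, against 3783 and 4404 in the control libraries, stood behind these values.

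MAX was level and 3 genes of the MYC network fell. MAX, with which MYC binds DNA, was at 11.1 and 12.04 RPKM in the knockdown libraries, against 10.5 and 12.4 RPKM in the control libraries, and the pairs overlap. Of 19 tested genes of the MYC network (22 listed), 0 rose in limma, 3 fell and 16 did not pass. That is 15.8% called, all lower, against 36.4% called and 21.8% called lower among all genes. The median log2 fold change was −0.08. With scaling 5 rose and 6 fell, or 57.9% called, against 61% of all genes. The 3 that fell, also those with the smallest p, were MXD4 and MXD3, which code for MAX-binding repressors (log2 fold changes −0.75 and −0.54, limma adjusted p = 0.000261 and 0.00787), and the acetyltransferase gene KAT5 (−0.51, adjusted p = 0.0137). MXD4 was at 1.75 and 1.82 RPKM after knockdown, against 2.99 and 3.73 RPKM in control cells. In fits that left out 1 library, MXD4 passed in 3 of 4, and MXD3 and KAT5 in 0 of 4.

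Known MYC-responsive genes outside the ribosome pathway had calls in both directions but more often stood lower. A log2 fold change above 0 was found for 8 of 31, against 5964 of all 13627 genes tested. Of the calls in this list as deposited, 25% were higher, against 40.3% among all genes. With scaling 77.4% of the list were called, against 61% of all genes. Of 31 tested (36 listed), 3 rose, 9 fell and 19 did not pass (38.7% called, against 36.4% of all genes), and the median was −0.24. With scaling 7 rose and 17 fell, and the median was −0.18; 0 to 2 rose and 2 to 6 fell when 1 library was left out. TFAP4, a transcription factor known as a direct MYC target, was at 1.94 and 2.21 RPKM after knockdown, against 5.93 and 6.14 RPKM in control cells (log2 fold change −1.35 ± 0.18, limma adjusted p = 1.08e-12). SHMT2, the mitochondrial serine hydroxymethyltransferase, fell to 31.3 ± 2.21 RPKM after knockdown, against 60.9 ± 5.77 RPKM in control cells (−0.95, adjusted p = 5.51e-07). TFAP4 and SHMT2 passed in all 4 fits that left out 1 library. PRPS2, a phosphoribosyl pyrophosphate synthetase, had a log2 fold change of −0.72 (adjusted p = 0.000258) and passed in 1 of those 4 fits. In the opposite direction, CTPS1, FASN and TFRC rose, which are the 3 higher calls of the list and are named here after their values were seen.

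The promoters of the ribosome biogenesis factors were searched for the E-box because MYC binds it. In RefSeq promoter sequences (GRCh38.p14, 250 bases before to 50 after each annotated start), 15 of the 39 members with an entry held CACGTG, 38.5%, against 13.03% of 8019 tested genes with an entry. Counted over windows, it was in 16 of 48 member windows (33.3%), 9.71% of 11572 windows of tested genes and 7.26% of all 35116 windows. MYC, NOP58, NOLC1, RRP12, RRS1 and BOP1 had no entry. The sequence reads the same on both strands, no other motif was searched, and a match is no evidence of binding. It was found in 2 of 5 nucleolar and snoRNP genes, 7 of 15 small subunit genes, 6 of 14 large subunit genes and 0 of 5 RNA polymerase I genes. Of its 17 matches, 14 began within 50 bases of an annotated start. The stretches below, each of 30 bases, show it in capitals for the members with the smallest p in each role that hold it, read 5′ to 3′ along the gene's strand.
DDX21: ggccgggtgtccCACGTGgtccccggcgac
FBL: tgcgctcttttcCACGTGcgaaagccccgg
NAT10: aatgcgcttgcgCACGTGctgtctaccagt
NOP14: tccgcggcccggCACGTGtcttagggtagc
LTV1: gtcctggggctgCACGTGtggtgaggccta
GNL3: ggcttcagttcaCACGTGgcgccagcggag
EBNA1BP2: tggcgctggagcgattcggtggCACGTGga
SDAD1: tacatgctaacaCACGTGaaaaaatttaca

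The DDX21 stretch lies at chr10:68956604-68956633 on the plus strand, and its E-box begins 31 bases before the start. That of FBL is at chr19:39846356-39846385 on the minus strand and begins 6 bases after the start. For NAT10 (chr11:34105602-34105631 on the plus strand) it begins 15 bases before, for NOP14 (chr4:2963374-2963403 on the minus strand) 15 bases after and for LTV1 (chr6:143843354-143843383 on the plus strand) 28 bases after the start. In the large subunit genes it begins 6 bases after the start in GNL3 (chr3:52686026-52686055 on the plus strand), 42 bases after in EBNA1BP2 (chr1:43172241-43172270 on the minus strand) and 228 bases before in SDAD1 (chr4:75991156-75991185 on the minus strand). Of these genes, which were picked by their p, DDX21 and LTV1 rose, NAT10 and NOP14 fell, and the other 4 did not pass. Of all 15 members with an E-box, 2 rose, 2 fell and 11 did not pass. That is 26.7% called, against 36.4% of all genes tested, and 86.7% with scaling, against 61%. Of the 24 members with an entry but no E-box, 8.33% were called as deposited and 62.5% with scaling. The 15 members with an E-box had a median log2 fold change of 0.04 and the 24 members with an entry but no E-box −0.02; with scaling the medians were 0.12 and 0.05.

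**Figure D2:**
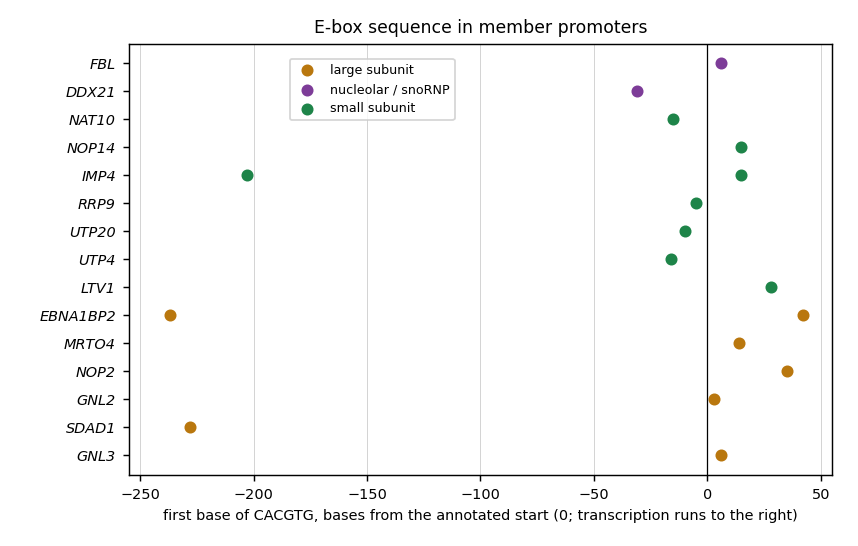
Position of each CACGTG match in the promoters of the 15 members that hold it, in bases from the annotated start of the gene, coloured by role; genes run from the lowest to the highest log2 fold change within a role. Matches sit near the start for most genes, and the 3 distant ones belong to IMP4, EBNA1BP2 and SDAD1.

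Among genes for RNA polymerase I transcription, 1 rose, 1 fell and 3 did not pass. That is 40% called, against 36.4% of all genes tested, and 80% with scaling, against 61%. UBTF, the upstream binding factor that keeps rRNA genes in an open state, was at 7.77 and 8.63 RPKM in the knockdown libraries, against 16.03 and 18.8 RPKM in the control libraries. Both knockdown values lay below both control values. Among the 44 members this was the largest change, 2.13-fold lower, or −1.04 ± 0.18 on the log2 scale (adjusted p = 4.76e-08, limma) and −0.96 with scaling. UBTF shares 216 exon bases with AC003102.1 and 37 with AC004596.1 on the opposite strand. It was the only 1 of the 8 called members to pass in all 4 fits that left out a library (adjusted p from 0.00368 to 0.0223). RRN3, which recruits RNA polymerase I to the promoter, moved the other way: it was at 7.48 and 8.81 RPKM in the knockdown libraries, against 4.88 and 5.71 RPKM in the control libraries. It rose 1.54-fold (0.58 ± 0.18, adjusted p = 0.00435) and failed in each of the 4 fits without a library (adjusted p between 0.0559 and 0.304). Its 3 named pseudogenes together stood at 0.318 and 0.392 RPKM after knockdown, against 0.256 and 0.263 RPKM in control cells, far below the gene itself.

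The catalytic subunits differed less. POLR1A, the largest subunit, was at 12.8 and 13.7 RPKM in the knockdown libraries, against 10.5 and 12.1 RPKM in the control libraries; the groups do not overlap, but the log2 fold change of 0.22 did not pass (95% confidence interval −0.12 to 0.56). POLR1B, the next largest, was at 5.40 and 5.78 RPKM in the knockdown libraries, against 6.06 and 6.95 RPKM in the control libraries (−0.20, interval −0.54 to 0.14). With scaling POLR1A passed upward (0.30) and POLR1B downward (−0.12). TAF1D, a subunit of the promoter selectivity complex, overlapped between groups at 4.98 and 5.17 RPKM on average in knockdown and control cells, and its exons share positions with 8 small RNA genes hosted there and with genes on the opposite strand. Of 15 further genes of the polymerase I machinery tested (17 listed), 1 rose, 2 fell and 12 did not pass, and the median was −0.17 (5 rose and 5 fell with scaling; 0 rose and 0 to 1 fell when 1 library was left out). Of these 15 genes, 20% were called as deposited, against 36.4% of all genes tested, and 66.7% with scaling, against 61%. The subunit gene POLR1G was at 8.69 and 10.3 RPKM after knockdown, against 13.9 and 16.4 RPKM in control cells (−0.65, limma adjusted p = 0.00114). POLR2K, a subunit shared by the RNA polymerases, fell (−0.41, adjusted p = 0.0496), and BAZ2A, a subunit of the nucleolar remodelling complex that silences rRNA genes, rose (0.42, adjusted p = 0.0452). POLR1G passed in 1 of the 4 fits without a library, POLR2K and BAZ2A in 0.

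Of the 7 nucleolar scaffold and snoRNP genes, 1 rose, 1 fell and 5 did not pass. That is 28.6% called, against 36.4% of all genes tested, and 85.7% with scaling, against 61%. NOLC1, a chaperone of snoRNPs in the nucleolus, was at 24.7 and 27.9 RPKM in the knockdown libraries, against 40.9 and 46.1 RPKM in the control libraries. The fall was 1.65-fold, or −0.71 ± 0.17 on the log2 scale (adjusted p = 0.000256, limma). It passed when control replicate 1 was left out (adjusted p = 0.0366) and not when control replicate 2 (0.0789), knockdown replicate 1 (0.188) or knockdown replicate 2 (0.0646) was. DDX21, an RNA helicase that takes part in rRNA transcription and processing, stood at 88.8 and 98.3 RPKM in the knockdown libraries, against 59.4 and 67.5 RPKM in the control libraries. Both knockdown values were the higher ones, a 1.47-fold rise (0.56 ± 0.17, adjusted p = 0.00458), which did not pass in any fit without 1 library (adjusted p from 0.072 to 0.341).

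The most abundant members belong to this set. FBL, the rRNA methyltransferase of box C/D snoRNPs, had 90.4 and 103 RPKM in the knockdown libraries, against 113 and 128 RPKM in the control libraries. NCL (nucleolin), a histone chaperone and rRNA-binding protein, had 76.2 and 83.4 RPKM in the knockdown libraries, against 86.99 and 99.6 RPKM in the control libraries. Both were lower in each knockdown library than in either control library, yet neither passed as deposited (log2 fold changes −0.32 and −0.22; 95% confidence intervals −0.65 to 0.02 and −0.55 to 0.11), whereas both passed downward with scaling (−0.23 and −0.14). DKC1 (dyskerin), the pseudouridine synthase of box H/ACA snoRNPs, averaged 39.9 ± 2.83 RPKM after knockdown and 35.9 ± 3.83 RPKM in control cells (SD, n = 2 each), and its groups overlap. NOP58, a core protein of box C/D snoRNPs, was at 9.95 and 11.5 RPKM in the knockdown libraries, against 9.32 and 11.1 RPKM in the control libraries, which overlap as well. NPM1 (nucleophosmin) is usually among the most abundant nucleolar proteins, but its row read 7.52 and 8.84 RPKM after knockdown, against 7.21 and 8.41 RPKM in control cells. The annotation names 45 pseudogenes of NPM1, of which 27 in the table summed to 8.90 and 8.81 RPKM after knockdown, against 5.83 and 7.30 RPKM in control cells. The handling of reads with several matches was not given in the sources used here. The level of NPM1 is therefore uncertain.

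Further snoRNP proteins and assembly factors more often stood lower than higher after knockdown. A log2 fold change above 0 was found for 3 of 12, against 5964 of all 13627 genes tested. As deposited 41.7% of the 12 were called, against 36.4% of all genes tested, and with scaling 75%, against 61%. Of the calls as deposited 20% were higher, against 40.3% among all genes. Of 12 tested (16 listed), 1 rose, 4 fell and 7 did not pass (41.7% called), and the median was −0.29 (3 rose and 6 fell with scaling; 0 rose and 0 to 3 fell when 1 library was left out). PIH1D1, a subunit of the R2TP complex that assembles box C/D snoRNPs, was at 27.2 and 32.7 RPKM after knockdown, against 49.5 and 56.2 RPKM in control cells (−0.81, limma adjusted p = 2.39e-05). RUVBL1, an ATPase of the same complex, fell too (−0.69, adjusted p = 0.000517), whereas ZNHIT6, another assembly factor of these particles, rose (0.58, adjusted p = 0.00382). PIH1D1 passed in 2, RUVBL1 in 1 and ZNHIT6 in 0 of the 4 fits without 1 library.

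**Figure D3:**
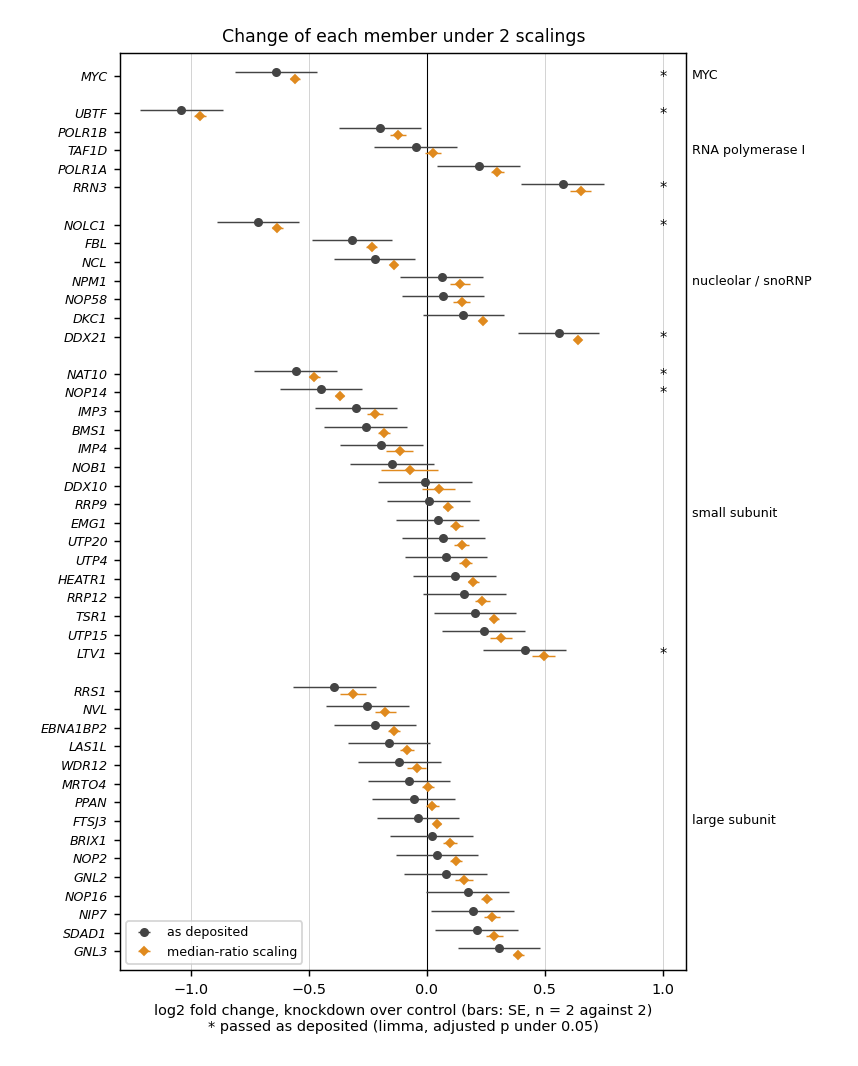
Log2 fold change (knockdown over control) of each member with its SE, n = 2 libraries against 2, on the values as deposited (grey circles) and after median-ratio scaling (orange diamonds); an asterisk marks the 8 members that passed as deposited. Scaling moves all genes to the right by about the same amount and shortens the bars, and UBTF lies farthest from 0 at −1.04.

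Among 16 small subunit factors, 1 rose, 2 fell and 13 did not pass, and the median was 0.03 (9 rose and 4 fell with scaling, median 0.11). As deposited 18.75% of these genes were called, against 36.4% of all genes tested, and with scaling 81.25%, against 61%. NAT10, which acetylates cytidines of the small subunit rRNA, was at 10.1 and 11.4 RPKM in the knockdown libraries, against 14.96 and 17.1 RPKM in the control libraries. Its fall of 1.49-fold (−0.56 ± 0.18, limma adjusted p = 0.00615) did not pass in any fit without 1 library (adjusted p from 0.0567 to 0.342). NOP14, a component of the small subunit processome, was at 16.1 and 17.7 RPKM in the knockdown libraries, against 21.6 and 24.9 RPKM in the control libraries (−0.45 ± 0.17, adjusted p = 0.0312). It shares 605 exon bases with the antisense gene NOP14-AS1, and it too was lost in all 4 of those fits (adjusted p from 0.0923 to 0.492) and without a variance trend (0.0672). LTV1, needed for a late step of small subunit assembly, was at 24.2 and 24.8 RPKM in the knockdown libraries, against 17.5 and 19.1 RPKM in the control libraries. The 2 knockdown values are almost equal and above both control values; the rise of 0.41 ± 0.17 (adjusted p = 0.0487) lay just under the threshold, and LTV1 shares 511 exon bases with AL049844.3 on the same strand. The call was lost with a pseudocount of 0.1 (0.0508), without a variance trend (0.0952) and in all 4 fits without 1 library (0.135 to 0.449).

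The earliest small subunit factors stayed near their control level or above it. UTP4, UTP15 and HEATR1 belong to the subcomplex that joins the precursor first. HEATR1 was at 12.1 and 13.2 RPKM in the knockdown libraries, against 10.9 and 12.4 RPKM in the control libraries, and UTP15 at 5.29 and 6.25 RPKM in the knockdown libraries, against 4.50 and 5.10 RPKM in the control libraries. UTP4 averaged 32.1 ± 3.09 RPKM after knockdown and 30.3 ± 2.44 RPKM in control cells (SD, n = 2 each). Only UTP15 had groups that do not overlap, and none of the 3 passed as deposited (log2 fold changes 0.12, 0.24 and 0.08), while all 3 passed upward with scaling (0.20, 0.32 and 0.16). HEATR1 shares 2095 exon bases with LGALS8 on the opposite strand, and whether counting used strand was not given in the sources used here. UTP20, a very large scaffold protein, averaged 7.34 ± 0.407 RPKM after knockdown and 6.97 ± 0.557 RPKM in control cells (SD, n = 2 each), with overlapping groups.

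IMP3, IMP4 and RRP9, which associate with the U3 snoRNA, did not pass as deposited. IMP3 was at 32.3 and 34.1 RPKM in the knockdown libraries, against 38.9 and 43.1 RPKM in the control libraries, without overlap (−0.30, 95% confidence interval −0.64 to 0.04; −0.22 and past the threshold with scaling). It shares 801 exon bases with SNX33 on the opposite strand. IMP4 was at 8.34 and 10.2 RPKM in the knockdown libraries, against 9.94 and 11.3 RPKM in the control libraries, which overlap, and RRP9 differed little, at 22.1 and 22.03 RPKM on average in knockdown and control cells (0.01, interval −0.33 to 0.35). BMS1, a GTPase of the processome, was at 8.99 and 10.1 RPKM in the knockdown libraries, against 10.8 and 12.3 RPKM in the control libraries (log2 fold change −0.26; it passed with scaling, at −0.18). Of its 18 named pseudogenes, 11 in the table summed to 0.499 and 0.326 RPKM after knockdown, against 0.766 and 0.857 RPKM in control cells, far below the gene itself.

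Enzymes and late factors made up the rest. TSR1, a GTPase-like late factor, was at 27.8 and 31.1 RPKM in the knockdown libraries, against 23.8 and 27.2 RPKM in the control libraries (0.21, interval −0.14 to 0.55), and RRP12, an export factor, at 6.80 and 7.52 RPKM in the knockdown libraries, against 6.01 and 6.72 RPKM in the control libraries (0.16, interval −0.18 to 0.50). Neither pair of groups overlaps, neither passed as deposited, and both passed upward with scaling. TSR1 shares 1146 exon bases with SRR on the opposite strand. EMG1, an rRNA methyltransferase, averaged 16.5 ± 1.18 RPKM after knockdown and 16.1 ± 2.03 RPKM in control cells (SD, n = 2 each), and it shares 3100 exon bases with LPCAT3 on the opposite strand. NOB1, the endonuclease that trims the end of the small subunit rRNA, was at 4.08 and 3.67 RPKM in the knockdown libraries, against 3.80 and 4.94 RPKM in the control libraries, the only member whose knockdown library 2 read below library 1. DDX10, an RNA helicase and the member with the lowest level, averaged 1.21 ± 0.0930 RPKM after knockdown and 1.22 ± 0.184 RPKM in control cells (SD, n = 2 each) from at least 292 estimated reads a library. These 3 genes overlapped between groups.

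None of the 15 tested large subunit factors passed as deposited: 0 rose and 0 fell in limma, with log2 fold changes between −0.39 and 0.31 and a median of −0.04. With scaling 6 rose, 3 fell and 6 did not pass, and the median was 0.04. As deposited 0% of them were called, against 36.4% of all genes tested, and with scaling 60%, against 61%. At an unadjusted limma p under 0.05, 1 of the 15 was lower, RRS1, and 0 were higher. The share of all genes at that unadjusted threshold was not computed, so this count has no background. RRS1, which brings the 5S RNP to the large subunit, was at 14.3 and 15.9 RPKM in the knockdown libraries, against 17.7 and 22.5 RPKM in the control libraries. The groups do not overlap and the log2 fold change was −0.39 ± 0.17 (limma, adjusted p = 0.065).

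Both values of GNL3 after knockdown exceeded both control values. GNL3 (nucleostemin), linked to proliferation and large subunit processing, was at 38.1 and 41.6 RPKM in the knockdown libraries, against 29.5 and 34.99 RPKM in the control libraries. Its log2 fold change was 0.31 (95% confidence interval −0.03 to 0.65), and it passed with scaling (0.39). GNL2, a nucleolar GTPase like GNL3, averaged 8.76 ± 0.523 RPKM after knockdown and 8.29 ± 1.14 RPKM in control cells (SD, n = 2 each), with overlap. NOP16 (0.17), NIP7 (0.19) and SDAD1 (0.21), which take part in large subunit assembly, also stood higher without overlap, and each passed with scaling but not as deposited (0.25, 0.27 and 0.28). NOP16 had 19.2 and 20.7 RPKM after knockdown, against 16.4 and 19.03 RPKM in control cells. NIP7 had 19.6 and 22.8 RPKM after knockdown, against 17.3 and 19.6 RPKM in control cells. SDAD1 had 4.33 and 4.81 RPKM after knockdown, against 3.58 and 4.18 RPKM in control cells. NIP7 shares 957 exon bases with COG8 on the opposite strand.

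Others stood lower without passing. NVL, an AAA ATPase that remodels large subunit particles, was at 5.15 and 5.83 RPKM in the knockdown libraries, against 5.99 and 7.32 RPKM in the control libraries. EBNA1BP2, which acts in large subunit processing, was at 24.8 and 27.5 RPKM in the knockdown libraries, against 28.97 and 32.1 RPKM in the control libraries. LAS1L, the endonuclease that cuts an internal spacer of the precursor, was at 9.13 and 9.83 RPKM in the knockdown libraries, against 10.02 and 11.3 RPKM in the control libraries. The groups do not overlap in any of these 3, with log2 fold changes of −0.25, −0.22 and −0.16; with scaling NVL (−0.18) and EBNA1BP2 (−0.14) passed and LAS1L (−0.08) did not.

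The remaining 6 large subunit genes overlapped between groups. The rRNA methyltransferase genes NOP2 and FTSJ3 averaged 18.3 and 25.9 RPKM after knockdown, against 17.8 and 26.7 RPKM in control cells. BRIX1 and PPAN, which act in early large subunit particles, averaged 8.82 and 12.02 RPKM after knockdown, against 8.69 and 12.5 RPKM. WDR12, a partner of BOP1, and MRTO4, which holds the place of a stalk protein, averaged 4.72 and 16.9 RPKM after knockdown, against 5.16 and 17.9 RPKM. The log2 fold changes of these 6 lay between −0.12 (WDR12) and 0.04 (NOP2); of them NOP2 alone passed with scaling (0.12). PPAN shares 1447 exon bases with the read-through gene PPAN-P2RY11 and NOP2 2550 with AC006064.6, both on the same strand, so that their reads cannot be fully assigned. Over the 36 members that did not pass, the 95% confidence intervals of the log2 fold change reached from −0.74 to 0.65, so changes of about that size were not excluded for single genes on the values as deposited.

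Ribosome biogenesis genes outside the 45 had calls in both directions, against a background of 36.4% of all genes tested as deposited and 61% with scaling. A log2 fold change above 0 was found for 27 of 38 other small subunit factors and 14 of 37 other large subunit factors. Among all 13627 genes tested, 5964 lay above 0. With scaling 73.7% and 56.8% of these 2 lists were called. Higher calls made up 85.7% and 61.9% of those calls, against 50.9% among all genes. Of 38 other small subunit factors tested (44 listed), 3 rose, 1 fell and 34 did not pass (10.5% called), and the median was 0.19; with scaling 24 rose, 4 fell and the median was 0.26, and 1 to 2 rose and 0 to 1 fell when 1 library was left out. RIOK3, an atypical kinase of late small subunit particles, was at 21.7 and 24.1 RPKM after knockdown, against 9.58 and 10.5 RPKM in control cells (1.15 ± 0.18, limma adjusted p = 1.26e-09; it passed in all 4 fits without 1 library). The helicase gene DDX47 rose (0.73, adjusted p = 0.000214) and NOC4L, which acts in small subunit maturation, fell (−0.66, adjusted p = 0.000885), each passing in 1 of those fits. Of 37 other large subunit factors (42 listed), 7 rose, 4 fell and 26 did not pass (29.7% called), and the median was −0.05 (13 rose and 8 fell with scaling; 0 to 1 rose and 0 fell when 1 library was left out). SBDS, the Shwachman-Diamond syndrome protein that helps to release an anti-association factor from the large subunit, was at 17.04 and 19.7 RPKM after knockdown, against 9.62 and 10.5 RPKM in control cells (0.84, adjusted p = 1.7e-05; it passed in 3 of 4 fits). NOC3L, a factor of early large subunit particles, rose (0.57, adjusted p = 0.00455) and PELP1, a scaffold of a complex that matures large subunit particles, fell (−0.57, adjusted p = 0.00455), and each passed in 0 of 4.

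Of 22 genes of the exosome and RNase MRP (25 listed), which trim the precursor, 0 rose in limma, 5 fell and 17 did not pass. That is 22.7% called, all lower, against 36.4% called and 21.8% called lower among all genes. The median was −0.01. With scaling 6 rose and 9 fell, or 68.2% called, against 61% of all genes. RPP25, a subunit of RNase MRP and RNase P, was at 4.003 and 4.60 RPKM after knockdown, against 10.03 and 11.9 RPKM in control cells (−1.25 ± 0.18, limma adjusted p = 2.47e-11) and passed in all 4 fits without 1 library. EXOSC6, a ring subunit of the exosome (−0.50, adjusted p = 0.0173) and POP5, a subunit of RNase MRP (−0.48, adjusted p = 0.0218) fell and passed in 0 of 4.

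**Figure D4:**
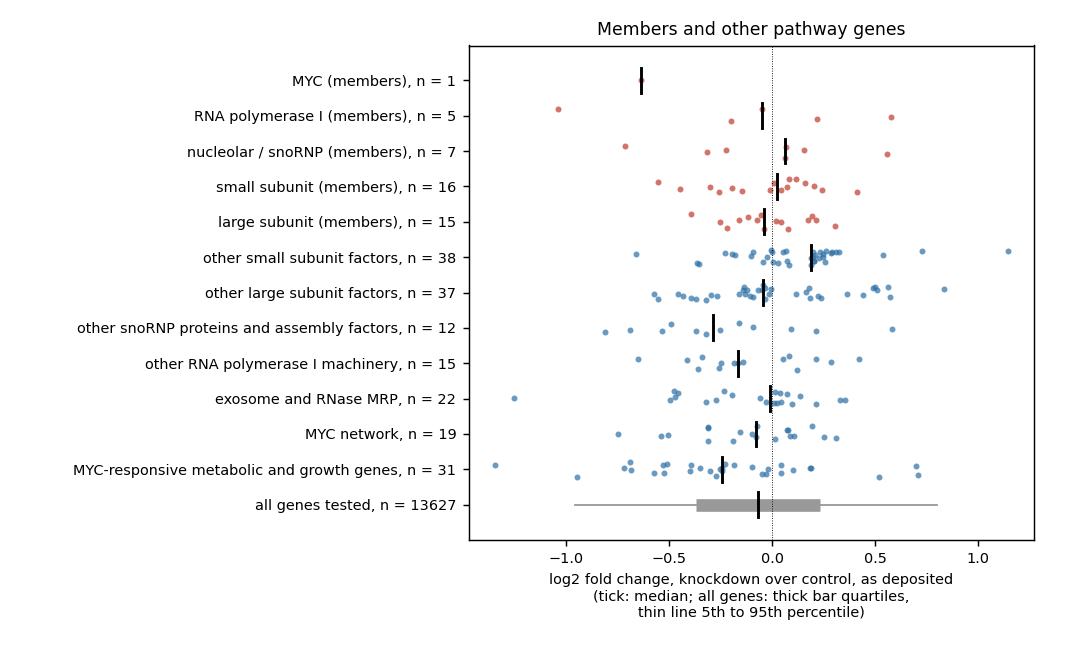
Log2 fold changes as deposited of the members by role (red), of other genes of the pathway and of MYC-related lists (blue), with each list's median as a tick; the grey row at the bottom shows the quartiles and the 5th to 95th percentiles of all 13627 genes tested. Member medians other than that of MYC lie between −0.05 and 0.06, near the median of −0.07 over all genes.

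Across all tested genes, both values of 1 group lay above both of the other for 66.8% (28% higher and 38.8% lower after knockdown). Among the 44 members this held for 25, or 56.8%, of which 11 were higher and 14 lower. The RPKM of the 44 summed to 849.9 and 942 in the knockdown libraries, against 876 and 1005 in the control libraries.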

How the data were processed

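RNA of 4 libraries of LM2 cells (2 knockdown, 2 control) was sequenced. The authors deposited 1 table of RPKM values with 1 column per library and Ensembl gene IDs. The submitters' processing notes name Bowtie 0.12.7 and hg19. How reads were counted, including strand and multiple matches, was not given in the sources used here. The number of columns of per-sample values left unused is 0. Symbols came from a current table (32172 IDs) or GENCODE 29 (136 IDs), and 4217 IDs had none. The table held 0 genes of chromosomes 20, 21 and 22, which were not analysed here.

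RPKM are not counts, so limma 3.58.1 (R 4.3.3) was run on log2(RPKM + 0.5) for the 13627 genes whose mean was 1 RPKM or more, with group as the only term, a variance trend, and Benjamini-Hochberg adjustment at 0.05 over all genes tested. limma found no spread of variances beyond the trend, so p-values rest on a variance shared by genes of like level. The median SE was 0.0544 after median-ratio scaling and 0.175 before it. Exact permutation with 2 libraries a group cannot reach the threshold and was not run. Confidence intervals are the log2 fold change ± 1.96 SE and, like the counting estimates, cover no variation between cultures.

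The steps of low values and GENCODE 29 exon lengths gave read totals of 29.7 M for both knockdown and 41.9 M for both control libraries, at which 82.7% to 83.1% of low values were whole reads within 0.1; the same total thus served 2 libraries that differ in depth, and the deposited values carry that difference. Estimated reads served for depth and checks alone. Their mean chi-square per gene was 1.32 between the knockdown and 1.33 between the control libraries, and 81.4 to 90.01 between groups, where counting error alone gives about 1; the 2 libraries of a group thus differed by little more than that and were kept as separate samples.

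Named genes are all members, HNRNPM, and for each of 7 further lists the 3 tested genes with the smallest p, with MAX added; CTPS1, FASN and TFRC were named after their values were seen. Members and lists were chosen with earlier results of these data known, so their counts and medians are descriptions and no set test was run. Promoters are RefSeq sequences (GRCh38.p14), another build than that of the alignment, and exon overlaps are from GENCODE 29. Alternatives were median-ratio scaling, pseudocounts of 0.1 and 1, no filter, a filter of 5 RPKM, no variance trend, the replicate number as a block, a minimum fold of 1.5, and leaving out each library. The fits without 1 library were not scaled, so they carry the depth difference between libraries of a group.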

Additional observations from a re-analysis of the deposited data

How the results depend on the processing

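Over the members, the 3 higher and 5 lower calls became 20 and 13 with median-ratio scaling, 9 and 13 with the replicate block, 18 and 12 with the replicate block and median-ratio scaling, and 0 and 0 both without a filter and with a minimum fold of 1.5; when 1 library was left out they ranged from 0 to 0 and from 1 to 3. Over all genes, the 2000 higher and 2964 lower calls became 4235 higher with median-ratio scaling (lower within 1.5 times), 262 and 255 without a filter, 1047 and 1321 with a filter at a mean of 5 RPKM, 3109 higher with the replicate block, 3914 higher with the block and scaling, 360 and 479 with a minimum fold of 1.5, and 759 to 1158 higher and 1057 to 2007 lower when 1 library was left out, where a lone library is assumed to vary like the other group. The median of the members ranged from −0.11 (without control replicate 1) to 0.105 (without control replicate 2) over these fits. The SD of that median between libraries of a group was 0.122. Both carry the depth difference between libraries of a group, so they are no independent check of each other. Replicate 1 read below replicate 2 in both groups (median log2 difference −0.137 for knockdown and −0.19 for control), but deviations of single genes were nearly unrelated between libraries of the same number (correlation over genes 0.031), and with 2 pairs the number is not known to mark a shared culture. All 8 called members passed under the block. Of the 44 members, the sign turned with median-ratio scaling, with or without the block, for TAF1D (0.0276), DDX10 (0.0509), PPAN (0.0236), MRTO4 (0.00494) and FTSJ3 (0.0417), none of them called. It also turned for uncalled genes when 1 library was left out, with log2 fold changes of −0.133 to 0.0383 for TAF1D, −0.0467 to 0.173 for NPM1, −0.0512 to 0.189 for NOP58, −0.0137 to 0.18 for UTP4, −0.0061 to 0.146 for UTP20, −0.103 to 0.118 for RRP9, −0.0799 to 0.17 for EMG1, −0.317 to 0.0213 for NOB1, −0.117 to 0.101 for DDX10, −0.0528 to 0.212 for GNL2, −0.0526 to 0.137 for NOP2, −0.067 to 0.108 for BRIX1, −0.167 to 0.056 for PPAN, −0.198 to 0.0479 for MRTO4, −0.137 to 0.0595 for FTSJ3 and −0.101 to 0.13 for MAX. None of the 8 called members changed sign in any alternative; UBTF failed only without a filter (adjusted p = 0.0556) and at a minimum fold of 1.5 (0.0714). The cause of these differences was not tested. Members had at least 230 estimated reads a library, and 2 libraries a group limit the precision.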
